A study of Mus musculus with 58 samples.

Results

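The 33 genes described here encode the steps by which a cell takes up sugar, breaks it down to pyruvate and exports lactate, together with Hif1a and 4 genes of the response to low oxygen. They were chosen by gene symbol, from the function of their products, with earlier results of these data known. All 33 were among the 24940 genes listed for the age series and the 10589 listed for the SgshKO mice given antisense oligonucleotides (ASO). In the wild-type (WT) ASO libraries 29 of them were among the 10277 genes listed, while Pfkp, Aldoc, Eno2 and Vegfa were not. By role they are 4 sugar transporters, 3 hexokinases, 7 genes of upper glycolysis, 3 genes that set the level of fructose 2,6-bisphosphate, 6 genes of lower glycolysis, 5 genes of lactate and pyruvate handling and 5 genes of the hypoxia response.

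Glycolysis splits glucose into pyruvate in the cytosol, and lactate dehydrogenase and monocarboxylate transporters let the cell dispose of the product as lactate. HIF-1 is a transcription factor made of an alpha subunit, the product of Hif1a, and a constant partner. When oxygen is plentiful, prolyl hydroxylases such as those encoded by Egln1 and Egln3 mark the alpha subunit for degradation. When it is scarce, or when inflammatory signals stabilise the subunit, HIF-1 binds DNA and switches on most genes of glycolysis. Microglia, the resident macrophages of the brain, burn several fuels and shift towards glycolysis when activated.

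Forebrain microglia of C57BL/6 mice were sorted and their polyA RNA was sequenced in 58 libraries. The age series compared WT mice with SgshKO mice, in which the gene of the lysosomal enzyme sulfamidase is knocked out, with 3 WT libraries at 3 weeks, 2 at 4 months and 4 at 8 months, and 4, 2 and 7 SgshKO libraries. WT mice were given PBS, the control ASO ntc, or the Mitf, Tfeb or Tfe3 ASO (4 libraries each), and SgshKO mice received ntc or the Mitf and Tfe3 ASOs together (8 each). Mitf, Tfeb and Tfe3 encode related transcription factors that act on genes of lysosomes and metabolism. ASOs were injected once, into the ventricles of the brain, and microglia were collected after 14 days. The labels name the genotype but no allele, and they give neither the age of the ASO-treated mice nor the sex of any mouse. Nothing in them says that replicates came from separate animals, so the p-values below measure the spread between these libraries, which may in part be technical.

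Total counts per library lay between 8191508 and 27106584 (age series), between 14372015 and 30378870 (WT ASO set) and between 12517838 and 30431437 (SgshKO ASO set). All 10 microglial markers had counts in each of the 58 libraries. In SgshKO against WT 2 of them were called lower and 0 higher at 3 weeks, and 5 lower and 0 higher at 4 months. At 8 months 5 were called lower and 4 higher. Sgsh transcript was not called lower in SgshKO at 3 weeks or 4 months and fell by 0.74 on the log2 scale at 8 months (adjusted p = 0.000583). Its presence in SgshKO libraries neither supports nor contradicts the genotype label, because the labels do not say which part of the gene is altered. Each ASO lowered its target: the log2 fold changes were -4.81 for Mitf, -3.24 for Tfeb and -2.38 for Tfe3 in WT, and -2.26 for Mitf and -1.08 for Tfe3 in SgshKO. Transcripts of other cells differed between the genotypes. The summed level of 10 neutrophil markers was at most 7.68 CPM (a count scaled to a common library size) in any WT library of the age series. It was 1.74 to 30.9 CPM in SgshKO at 3 weeks, 3021 and 14908 CPM at 4 months and 435 to 5852 CPM at 8 months. At 8 months all 10 neutrophil, 6 of 10 monocyte and 7 of 9 tested border macrophage markers were called higher in SgshKO. Of 10 astrocyte markers 4 were higher and 1 lower, and of 5 tested endothelial markers 3 were higher and 1 lower. Of 6 tested oligodendrocyte markers 3 were higher and 0 lower, and of 4 tested neuron markers 0 were called. A different number of cells of a type and a different amount of RNA per cell cannot be told apart in such bulk libraries. Levels of the sex-linked transcripts Xist and Ddx3y also differed between ages. At 3 weeks every library had 1444 to 2386 CPM of Xist and at most 0.21 CPM of Ddx3y. At 8 months WT libraries had at most 1.37 CPM of Xist and 120 to 174 CPM of Ddx3y. SgshKO libraries ran from 0.338 to 1626 CPM and from 0.0903 to 119 CPM there. Age and these transcripts cannot be told apart in WT between 3 weeks and 8 months.

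In the age series the glycolysis and hypoxia genes were mostly higher in SgshKO microglia, and more of them at the later ages. At an adjusted p of 0.05 over all 14309 genes tested, 13 of the 33 were higher and 3 lower in SgshKO at 3 weeks. Of all genes 9.03% were called there, 5.31% higher and 3.72% lower. At 4 months 20 were higher and 1 lower, beside 19.5% of all genes called, 10.3% higher and 9.26% lower. At 8 months 23 were higher and 3 lower, beside 40.5% of all genes called, 21.6% higher and 18.9% lower. The median log2 fold change of the 33 was 0.39, 1.02 and 1.11 at the 3 ages, and that of all genes tested was -0.02, 0.02 and 0.02. Libraries of the 2 genotypes did not overlap for 19, 28 and 21 of the 33 genes, beside 22.5%, 58.1% and 25.2% of all genes. The matrix of fold changes shows 12 genes called higher at every age, namely Hif1a, Bnip3, Vegfa, Gpi1, Pfkl, Aldoa, Tpi1, Pfkfb3, Pgam1, Pkm, Ldha and Slc16a3. Slc2a5, which encodes a fructose transporter, was the 1 gene called lower at every age.

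**Figure D1:**
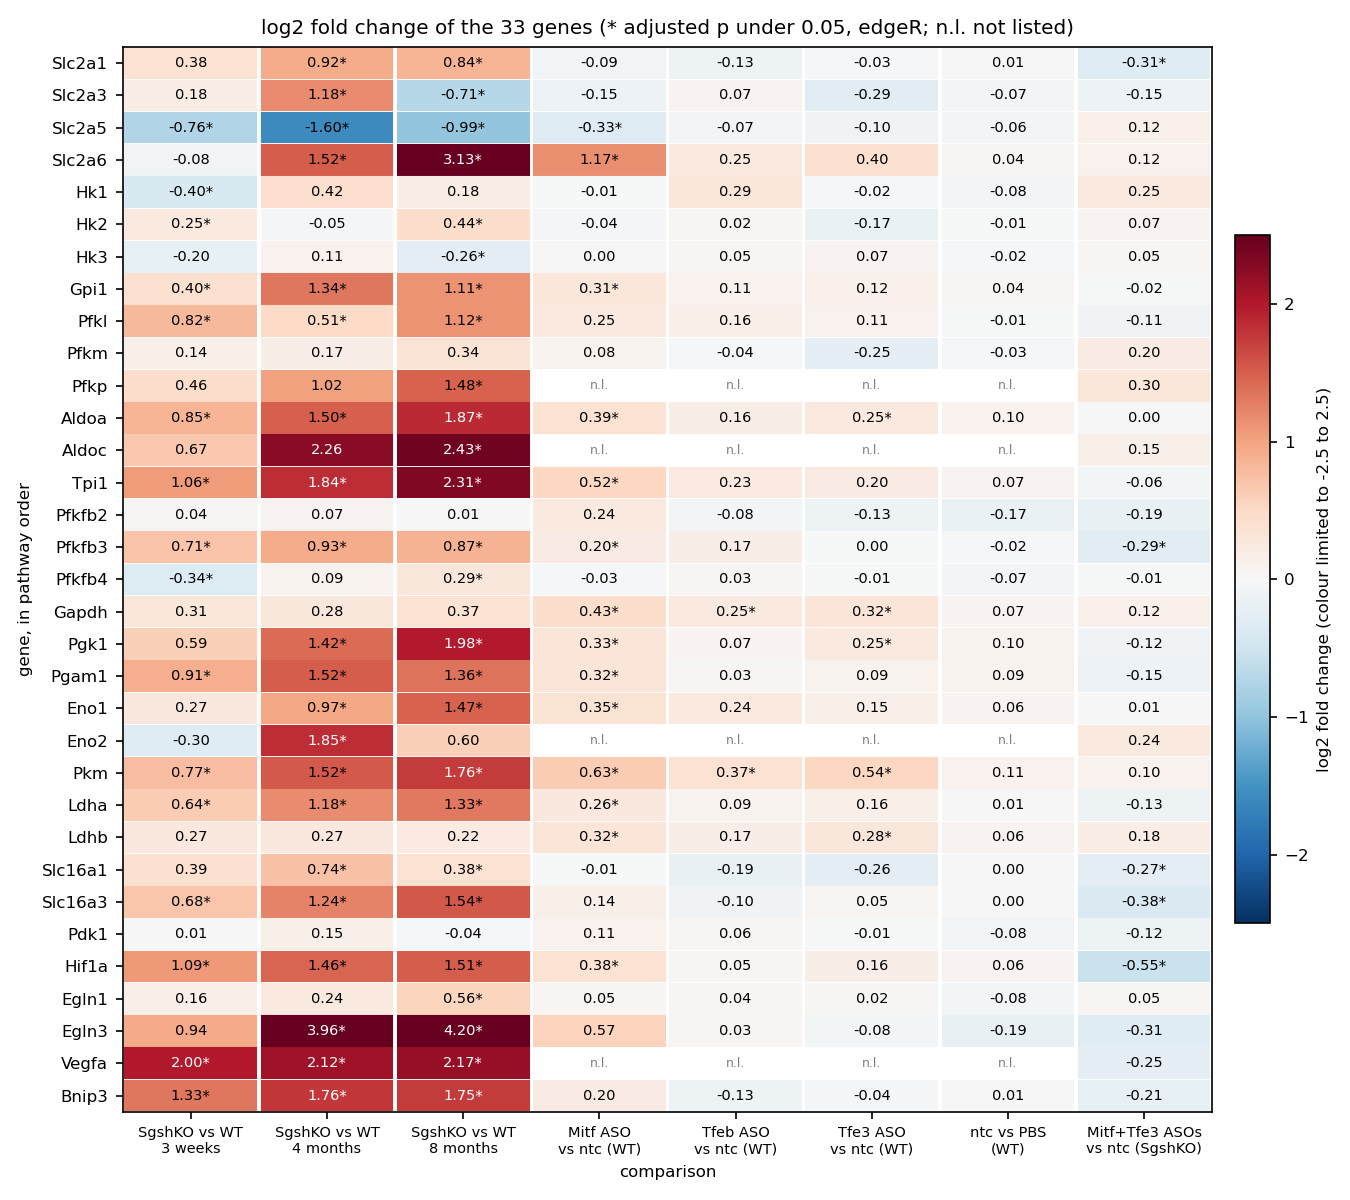
Log2 fold changes of the 33 genes (rows, by role) in 8 comparisons (columns): SgshKO against WT at 3 ages, the Mitf, Tfeb and Tfe3 ASOs against ntc and ntc against PBS in WT, and the combined ASOs against ntc in SgshKO. A star marks an adjusted p under 0.05 and n.l. a gene not listed in that table. In the first 3 columns 13, 20 and 23 genes are starred as higher in SgshKO at 3 weeks, 4 months and 8 months.

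A further fit left out 3 SgshKO libraries high in neutrophil transcripts, namely replicates 1 and 3 at 8 months, with sums over 1000 CPM, and the higher of the 2 at 4 months, replicate 2. The other 4-month library, at 3021 CPM, stayed in. So did 5 SgshKO libraries of 8 months with sums of 435 CPM or more, against at most 3.68 CPM in WT of that age. The part of the neutrophil transcripts that stayed in was therefore not tested. In that fit 26 genes were called at 8 months, again 23 higher and 3 lower, and 14 at 4 months, 13 higher and 1 lower. The lone SgshKO library of 4 months was assumed to vary like the other groups, and leaving out WT replicate 2 of that age alone also gave 14. The part of monocyte and border macrophage transcripts in these counts was not tested. At 3 weeks, where no neutrophil marker was called, leaving out WT replicate 3 lowered the count of called genes from 16 to 10. Of 12 genes of the response to tissue dissociation, 4 were higher and none lower in SgshKO at 3 weeks, with a median log2 fold change of 1.15. Their summed level there was 5112 to 8034 CPM in WT and 5042 to 23458 CPM in SgshKO. None was called at 4 months, at 8 months 1 was higher and 3 lower, and within SgshKO 5 were lower at 8 months than at 3 weeks. The part of these genes in the counts was not tested.

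Hif1a encodes the oxygen-regulated subunit of HIF-1. It lies at chr12:73907867-73947530, + strand. At 3 weeks it measured 194, 185 and 202 CPM in the WT libraries and 467, 413, 403 and 362 CPM in the SgshKO libraries. At 4 months the values were 179.8 and 153 CPM against 443 and 469 CPM, and at 8 months 159, 132, 136 and 149 CPM against 358 to 466 with a median of 415 CPM. Every SgshKO library lay above every WT library of its age. The log2 fold change was 1.09 ± 0.10 (SE, adjusted p = 5.2e-08) at 3 weeks, 1.46 ± 0.13 (SE, adjusted p = 2.31e-08) at 4 months and 1.51 ± 0.09 (SE, adjusted p = 7.64e-13) at 8 months, a 2.84-fold difference at the oldest age.

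Egln3 encodes a prolyl hydroxylase that is itself induced by HIF-1. At 3 weeks it was barely detected, with 0.281, 1.32 and 1.62 CPM in WT and 1.95, 2.19, 1.65 and 2.70 CPM in SgshKO, and the difference did not pass the test (adjusted p = 0.185). It measured 1.54 and 1.79 CPM in WT and 26.5 and 26.1 CPM in SgshKO at 4 months. At 8 months the WT libraries held 1.87, 0.727, 1.65 and 0.884 CPM and the SgshKO libraries 12.4 to 32.5 with a median of 23.5 CPM. The groups were far apart at both later ages, with log2 fold changes of 3.96 ± 0.50 (SE, adjusted p = 2.92e-06) and 4.20 ± 0.33 (SE, adjusted p = 2.84e-10). The 18.4-fold difference at 8 months was the largest of the 33 genes. Its sister gene Egln1, whose product is the main oxygen-sensing hydroxylase, measured 51.4, 51.7, 52.2 and 47.8 CPM in WT and 68.1 to 86.5 with a median of 73.2 CPM in SgshKO at 8 months. These groups did not overlap either, and the log2 fold change was 0.56 ± 0.07 (SE, adjusted p = 1.52e-06). Egln1 was not called at 3 weeks or 4 months.

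Bnip3, a HIF-1 target whose product takes part in mitophagy, measured 10.9, 8.49 and 10.4 CPM in WT and 27.1, 23.4, 21.3 and 28.1 CPM in SgshKO at 3 weeks. At 4 months it measured 12.8 and 10.8 against 35.6 and 44.02 CPM, and at 8 months 15.95, 9.75, 10.9 and 12.6 against 35.9 to 48.3 with a median of 42.3 CPM. Every SgshKO library exceeded every WT library of its age, and the log2 fold change was 1.33 ± 0.16 (SE, adjusted p = 2.98e-06), 1.76 ± 0.21 (SE, adjusted p = 1.68e-06) and 1.75 ± 0.14 (SE, adjusted p = 1.79e-10) in order of age. Vegfa, which encodes an angiogenic growth factor, measured 2.17, 2.11 and 1.95 CPM in WT and 10.8, 7.99, 5.13 and 9.06 CPM in SgshKO at 3 weeks. Its values were 6.97 and 6.02 against 19.6 and 36.6 CPM at 4 months and 2.29, 2.52, 7.55 and 8.84 against 21.4 to 28.01 with a median of 23.3 CPM at 8 months. The WT libraries at 8 months fell into a low and a high pair, yet all stayed below the SgshKO libraries. The log2 fold change was 1.999 ± 0.37 (SE, adjusted p = 0.000596), 2.12 ± 0.44 (SE, adjusted p = 0.00114) and 2.17 ± 0.29 (SE, adjusted p = 1.36e-06). Without SgshKO replicate 2 the 4-month value was 1.59 (adjusted p = 0.0562, all high-neutrophil libraries left out).

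HIF-1 binds a short core, ACGTG or GCGTG, and factors of the Mitf family bind CACGTG, which contains the first of these. Windows of 250 bases before annotated starts (RefSeq, build GRCm38.p6) were found for 32 of the 33 genes, all but Slc2a3, and gave 48 windows. Either HIF core, on either strand, was present in 38 of 48 windows (79.2%), in 28 of the 32 genes, beside 38.6% of all 32851 windows of that length. ACGTG was in 45.8% of the 48 windows and 16.6% of all, GCGTG in 52.1% and 28.2%, and CACGTG in 14.6% and 6.02%. The median GC content was 60.4% in the 48 windows and 52.4% in all, and its part in these shares was not tested. A match of letters is a description and not a binding site. Some of the 33 genes were chosen as targets of HIF-1, so the share of its cores among them is no independent evidence. The windows of the 5 genes that fell with the combined ASOs in SgshKO, and of Bnip3 and Egln3, are shown 5′ to 3′ on the strand of the gene. Pfkfb3 has 2 windows, of which the one next to the gene's start in the count table is shown. The other, at chr2:11553930-11554179, held 1 ACGTG and no GCGTG. The Slc16a3 window precedes another annotated start. It lies inside the span of that gene in the count table, which begins at chr11:120948484. Capitals mark every match to ACGTG or GCGTG or to their reverse complements.
Hif1a, chr12:73907617-73907866, + strand: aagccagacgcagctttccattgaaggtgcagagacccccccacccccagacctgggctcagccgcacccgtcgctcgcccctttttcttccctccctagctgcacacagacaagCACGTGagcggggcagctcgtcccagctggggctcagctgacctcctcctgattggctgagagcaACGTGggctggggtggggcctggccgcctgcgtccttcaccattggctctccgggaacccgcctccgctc
Slc2a1, chr4:119108495-119108744, + strand: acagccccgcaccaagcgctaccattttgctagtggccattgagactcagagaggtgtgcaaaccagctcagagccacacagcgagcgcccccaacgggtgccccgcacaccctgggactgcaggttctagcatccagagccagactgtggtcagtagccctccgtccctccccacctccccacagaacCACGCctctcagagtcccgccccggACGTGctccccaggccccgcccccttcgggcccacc
Pfkfb3, chr2:11502091-11502340, - strand: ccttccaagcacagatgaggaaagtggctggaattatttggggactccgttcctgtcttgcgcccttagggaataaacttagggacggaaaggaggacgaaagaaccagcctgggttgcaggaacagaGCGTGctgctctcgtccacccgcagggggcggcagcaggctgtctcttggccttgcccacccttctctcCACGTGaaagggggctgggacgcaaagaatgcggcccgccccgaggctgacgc
Slc16a1, chr3:104638414-104638663, + strand: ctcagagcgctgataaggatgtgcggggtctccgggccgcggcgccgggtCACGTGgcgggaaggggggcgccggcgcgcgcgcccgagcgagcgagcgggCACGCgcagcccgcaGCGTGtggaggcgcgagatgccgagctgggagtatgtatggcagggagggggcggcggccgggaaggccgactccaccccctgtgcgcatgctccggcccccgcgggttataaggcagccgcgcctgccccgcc
Slc16a3, chr11:120948817-120949066, + strand: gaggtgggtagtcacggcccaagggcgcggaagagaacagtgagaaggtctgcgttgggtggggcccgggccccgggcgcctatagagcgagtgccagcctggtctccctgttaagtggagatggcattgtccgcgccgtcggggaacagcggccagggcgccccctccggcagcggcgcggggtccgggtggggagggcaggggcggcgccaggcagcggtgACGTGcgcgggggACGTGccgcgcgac
Bnip3, chr7:138909507-138909756, - strand: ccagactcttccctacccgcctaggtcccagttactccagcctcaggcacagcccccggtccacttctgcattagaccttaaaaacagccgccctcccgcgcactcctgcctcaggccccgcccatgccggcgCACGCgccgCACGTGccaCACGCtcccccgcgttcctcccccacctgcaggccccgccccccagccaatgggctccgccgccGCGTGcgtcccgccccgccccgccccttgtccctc
Egln3, chr12:54203875-54204124, - strand: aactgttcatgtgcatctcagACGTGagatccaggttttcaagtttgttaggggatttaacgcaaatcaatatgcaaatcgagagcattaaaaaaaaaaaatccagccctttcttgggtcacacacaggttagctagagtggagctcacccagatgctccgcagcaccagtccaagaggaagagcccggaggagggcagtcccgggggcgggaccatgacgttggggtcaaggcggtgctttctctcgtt

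Among the sugar transporters the genes moved in different directions. Slc2a1, which encodes the widespread glucose transporter GLUT1 (chr4:119108745-119137329, + strand), measured 53.2, 64.2 and 65.01 CPM in WT and 67.4, 76.9, 87.7 and 86.4 CPM in SgshKO at 3 weeks and was not called. At 4 months it measured 50.8 and 50.7 against 85.8 and 107 CPM, and at 8 months 55.6, 55.1, 51.96 and 119.7 against 97.5 to 172 with a median of 117 CPM. WT replicate 4 at 8 months stood far above the other WT libraries and inside the SgshKO range. The log2 fold change was 0.92 ± 0.29 (SE, adjusted p = 0.0276) at 4 months and 0.84 ± 0.18 (SE, adjusted p = 0.000669) at 8 months. The 4-month call ended without WT replicate 1, WT replicate 2 or SgshKO replicate 2 (adjusted p = 0.117, 0.134 and 0.226).

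Slc2a5 encodes GLUT5, a fructose transporter for which microglia are known in the brain. It lies at chr4:150119344-150144168, + strand. It measured 622, 623 and 639.8 CPM in WT and 333, 389, 409 and 355 CPM in SgshKO at 3 weeks, and 673 and 604 against 238 and 184 CPM at 4 months. At 8 months the WT libraries split into 283, 612, 666 and 281 CPM, and the SgshKO libraries ran from 212 to 280.1 with a median of 219 CPM. The groups did not overlap at any age, although the lower WT pair at 8 months lay just above the highest SgshKO library. The log2 fold change was -0.76 ± 0.21 (SE, adjusted p = 0.0183), -1.60 ± 0.28 (SE, adjusted p = 0.000191) and -0.99 ± 0.17 (SE, adjusted p = 3.43e-05). The 3-week call ended without any 1 of the 3 WT libraries or SgshKO replicate 1 (adjusted p from 0.0542 to 0.0596).

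Slc2a6 encodes GLUT6, an intracellular hexose transporter of macrophages. It was near 1 CPM in both genotypes at 3 weeks, with 0.631, 1.20 and 1.34 in WT and 1.19, 1.14, 0.678 and 0.950 in SgshKO. It measured 3.43 and 2.73 against 11.2 and 6.36 CPM at 4 months and 1.11, 0.582, 1.56 and 1.68 against 7.41 to 15 with a median of 10.3 CPM at 8 months. The groups were separate at both later ages, and the log2 fold change was 1.52 ± 0.45 (SE, adjusted p = 0.0182) and 3.13 ± 0.32 (SE, adjusted p = 1.94e-08). The 4-month call ended without WT replicate 1, WT replicate 2 or SgshKO replicate 1 (adjusted p = 0.0673, 0.168 and 0.194). Slc2a3, the gene of the high-affinity transporter GLUT3, was called higher at 4 months and lower at 8 months. It measured 15.01 and 16.1 against 21.03 and 49.3 CPM at 4 months and 31.1, 41.7, 43.9 and 59.4 against 14.5 to 37.1 with a median of 26.4 CPM at 8 months. The SgshKO library with 49.3 CPM was the one with the highest neutrophil sum. Log2 fold changes were 1.18 ± 0.38 (SE, adjusted p = 0.0295) and -0.71 ± 0.22 (SE, adjusted p = 0.0128). Without the high-neutrophil libraries the 4-month value was 0.42 (adjusted p = 0.593), and without WT replicate 1 or 2 its adjusted p was 0.149 or 0.133. The 8-month groups overlapped, and that call ended without WT replicate 4 (adjusted p = 0.0634).

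The hexokinases, which trap glucose as glucose 6-phosphate, moved little. Hk2 measured 291, 314, 309 and 293 CPM in WT and 380.1 to 433 with a median of 414 CPM in SgshKO at 8 months, groups that did not overlap, and the log2 fold change was 0.44 ± 0.07 (SE, adjusted p = 7.24e-06). At 3 weeks its change was 0.25 (adjusted p = 0.0442), and that call held in 11 of the 22 fits that each left out 1 library of any age (adjusted p up to 0.217). Hk1 was lower at 3 weeks, at -0.40 (adjusted p = 0.0487), and held in 5 of those 22 fits (adjusted p up to 0.155). Hk3 was lower at 8 months, at -0.26 (adjusted p = 0.0402), and lost its call without WT replicate 1, 2 or 3 (adjusted p = 0.0763, 0.116 and 0.103) or SgshKO replicate 4, 5 or 6 (0.0716, 0.0742 and 0.0571).

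In upper glycolysis 4 of 7 genes were higher at 3 weeks and at 4 months and 6 of 7 at 8 months, and none was lower. Tpi1, the gene of triosephosphate isomerase (chr6:124810592-124814296, - strand), was called at each age. It measured 48.8, 49.5 and 49.8 CPM in WT and 91.9, 109, 107 and 105 CPM in SgshKO at 3 weeks. At 4 months the values were 47.6 and 41.9 against 149 and 171 CPM, and at 8 months 32.7, 33.1, 36.1 and 40.8 against 141 to 232 with a median of 173 CPM. No groups overlapped, and the log2 fold change was 1.06 ± 0.12 (SE, adjusted p = 1.22e-06), 1.84 ± 0.16 (SE, adjusted p = 1.5e-08) and 2.31 ± 0.11 (SE, adjusted p = 2.29e-14), or 4.96-fold at 8 months.

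Aldoa encodes the main aldolase, which splits fructose 1,6-bisphosphate (chr7:126795234-126799178, - strand). It measured 223, 246 and 243 CPM in WT and 365, 440.5, 467 and 445 CPM in SgshKO at 3 weeks, and 246 and 258 against 697 and 729 CPM at 4 months. The 8-month values were 186, 222, 224 and 199.5 CPM in WT and 596 to 868 with a median of 769 CPM in SgshKO. All SgshKO libraries were above all WT libraries of their age, and the log2 fold change was 0.85 ± 0.10 (SE, adjusted p = 2.9e-06), 1.50 ± 0.14 (SE, adjusted p = 2.43e-08) and 1.87 ± 0.09 (SE, adjusted p = 4.74e-14). Aldoc, a second aldolase gene, was near the limit of detection in WT at 8 months, with 1.80, 0.436, 0.566 and 0 CPM, and measured 2.44 to 5.16 with a median of 4.12 CPM in SgshKO. These groups did not overlap, and the log2 fold change was 2.43 ± 0.63 (SE, adjusted p = 0.0031).

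Gpi1, whose product interconverts glucose and fructose 6-phosphate, measured 76.4, 81.9 and 83.3 CPM in WT and 95.9, 110.1, 113 and 106 CPM in SgshKO at 3 weeks. It measured 86.3 and 85.3 against 173 and 260.2 CPM at 4 months and 83.4, 85.6, 80.1 and 87.4 against 145 to 202 with a median of 186 CPM at 8 months. The groups were separate at each age, with log2 fold changes of 0.40 ± 0.11 (SE, adjusted p = 0.0237), 1.34 ± 0.15 (SE, adjusted p = 5.11e-07) and 1.11 ± 0.09 (SE, adjusted p = 9.24e-10). The 3-week call ended without any 1 of the 3 WT libraries or SgshKO replicate 2 or 3 (adjusted p from 0.0527 to 0.121). Pfkl encodes the liver-type subunit of phosphofructokinase, the committed step of glycolysis. Its values were 67.4, 78.7 and 60.5 against 103, 121, 126 and 135 CPM at 3 weeks, 89.1 and 98.7 against 138 and 129 CPM at 4 months and 72.7, 90.04, 90.98 and 92.8 against 167 to 207 with a median of 182 CPM at 8 months. No age showed an overlap, and the log2 fold change was 0.82 ± 0.11 (SE, adjusted p = 1.14e-05), 0.51 ± 0.14 (SE, adjusted p = 0.013) and 1.12 ± 0.09 (SE, adjusted p = 5.21e-10). The 4-month call ended without WT replicate 1 (adjusted p = 0.115), SgshKO replicate 1 (0.0986) or SgshKO replicate 2 (0.0667). Pfkp, the platelet-type subunit, was called at 8 months, with 1.94, 2.91, 2.45 and 2.48 CPM in WT and 3.70 to 9.75 with a median of 7.30 CPM in SgshKO, and the log2 fold change was 1.48 ± 0.29 (SE, adjusted p = 0.000249). Pfkm, the muscle-type subunit, was not called at any age.

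Fructose 2,6-bisphosphate is the strongest activator of phosphofructokinase, and Pfkfb3 encodes the enzyme that mostly makes it. Pfkfb3 (chr2:11471431-11502090, - strand) measured 149, 151 and 142 CPM in WT and 263, 242, 231 and 228 CPM in SgshKO at 3 weeks, and 201 and 184 against 349 and 387 CPM at 4 months. At 8 months WT held 172, 186, 181 and 299 CPM and SgshKO 346 to 405 with a median of 375 CPM. The groups did not overlap, although WT replicate 4 at 8 months was again the highest of its group. The log2 fold change was 0.71 ± 0.13 (SE, adjusted p = 0.000535), 0.93 ± 0.17 (SE, adjusted p = 0.000276) and 0.87 ± 0.11 (SE, adjusted p = 4.96e-07). Pfkfb4, which encodes a related enzyme, was lower at 3 weeks, at -0.34 (adjusted p = 0.0442), and higher at 8 months, at 0.29 (adjusted p = 0.0105). The 3-week call held in 6 of the 22 fits that each left out 1 library (adjusted p up to 0.305), and the later one ended without WT replicate 4 (adjusted p = 0.0933). Pfkfb2 was not called at any age.

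**Figure D2:**
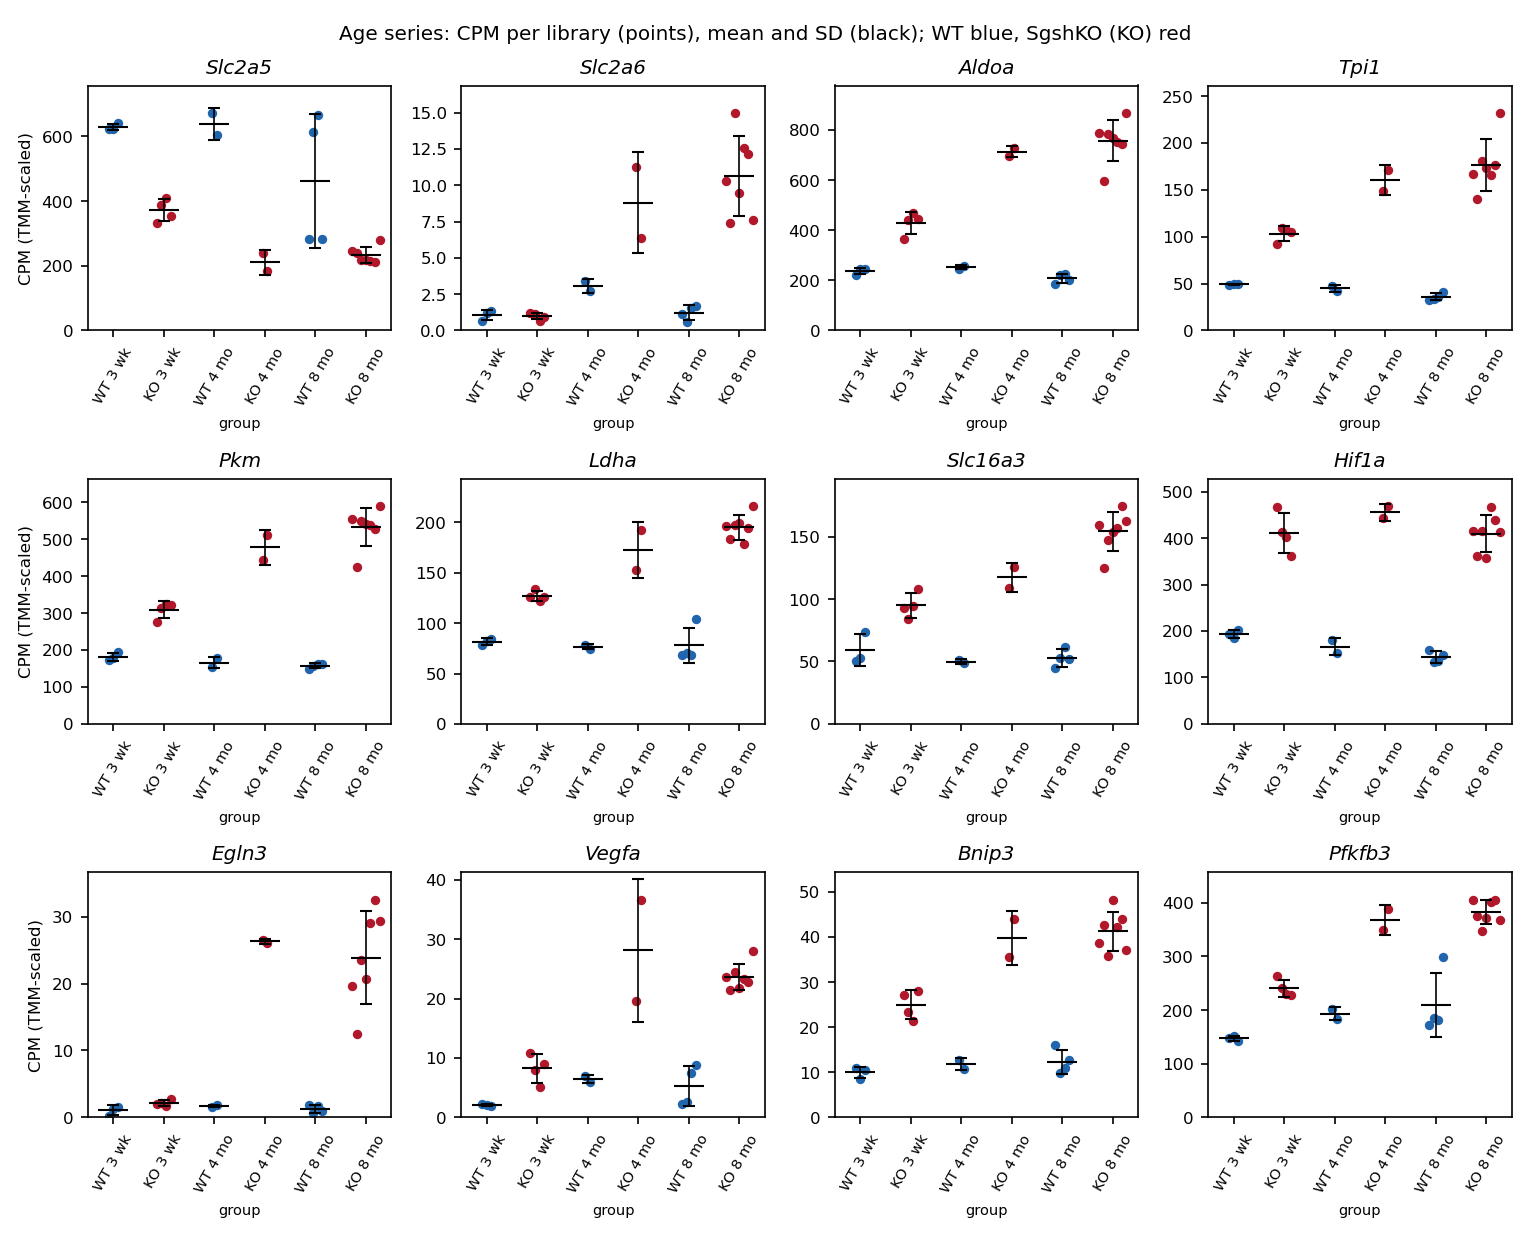
CPM of 12 genes in each library of the age series (vertical axes) by genotype and age (horizontal axes), WT in blue and SgshKO in red, with the mean and SD in black. Hif1a, Aldoa, Tpi1, Pkm, Ldha, Slc16a3 and Bnip3 lie higher in every SgshKO library than in every WT library of the same age, and Slc2a5 lies lower.

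Lower glycolysis ends with pyruvate kinase, encoded by Pkm (chr9:59656368-59679375, + strand). Pkm measured 172, 178 and 194 CPM in WT and 276, 315, 324 and 321 CPM in SgshKO at 3 weeks. It measured 155 and 177 against 444 and 512 CPM at 4 months and 148, 157, 163 and 162 against 424 to 589 with a median of 541 CPM at 8 months. The separation was complete at every age, and the log2 fold change was 0.77 ± 0.10 (SE, adjusted p = 3.9e-06), 1.52 ± 0.13 (SE, adjusted p = 5.08e-09) and 1.76 ± 0.08 (SE, adjusted p = 2.85e-14). Eno1, the gene of the main enolase, measured 50.4 and 53.8 CPM in WT and 94.2 and 109 CPM in SgshKO at 4 months, and 26.2, 43.3, 37.9 and 27.2 CPM in WT and 81.96 to 105 with a median of 95.2 CPM in SgshKO at 8 months. These groups did not overlap, and the log2 fold change was 0.97 (adjusted p = 0.00103) at 4 months and 1.47 (adjusted p = 1.8e-09) at 8 months, with no call at 3 weeks. Eno2, the neuronal enolase gene, measured 2.72 and 1.86 against 6.97 and 9.46 CPM at 4 months, the 1 age at which it was called, and the log2 fold change was 1.85 (adjusted p = 0.0238). It was not called without WT replicate 1, WT replicate 2 or SgshKO replicate 2 (adjusted p = 0.0758, 0.209 and 0.153).

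Pgk1 (phosphoglycerate kinase) and Pgam1 (phosphoglycerate mutase) were low in the age series. Pgk1 measured 1.46, 2.47, 2.27 and 3.27 CPM in WT and 7.06 to 11.8 with a median of 9.09 CPM in SgshKO at 8 months, without overlap, and the log2 fold change was 1.98 ± 0.23 (SE, adjusted p = 2.28e-07). At 4 months it measured 4.02 and 2.87 against 7.58 and 10.7 CPM, a change of 1.42 (adjusted p = 0.00587), and without WT or SgshKO replicate 2 the adjusted p was 0.112 or 0.0992. Pgam1 measured 5.12, 3.01 and 3.24 CPM in WT and 7.03, 8.13, 6.68 and 6.50 CPM in SgshKO at 3 weeks, and 5.91 and 3.59 against 14.1 and 12.8 CPM at 4 months. It measured 6.17, 2.67, 4.06 and 4.16 CPM in WT and 8.11 to 13.2 with a median of 11.7 CPM in SgshKO at 8 months, again with no overlap. Its log2 fold change was 0.91 (adjusted p = 0.0281) at 3 weeks, 1.52 (adjusted p = 0.00265) at 4 months and 1.36 (adjusted p = 2.07e-05) at 8 months. The 3-week call ended without WT replicate 2, WT replicate 3 or SgshKO replicate 2 (adjusted p = 0.155, 0.127 and 0.0775), and the 4-month call with WT replicate 2 left out (0.0859). Gapdh, which encodes glyceraldehyde 3-phosphate dehydrogenase, stayed between 1.19 and 4.16 CPM in all 22 libraries of the age series and was not called.

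Ldha encodes the lactate dehydrogenase subunit that favours lactate (chr7:46845804-46855627, + strand). It measured 78.2, 82.04 and 84.7 CPM in WT and 126, 134, 122 and 126 CPM in SgshKO at 3 weeks, and 78.1 and 74.7 against 153 and 192 CPM at 4 months. At 8 months the values were 68.7, 70.4, 68.8 and 104 CPM in WT and 179 to 216 with a median of 197 CPM in SgshKO. The groups were separate at all 3 ages, and the log2 fold change was 0.64 ± 0.11 (SE, adjusted p = 0.00045), 1.18 ± 0.15 (SE, adjusted p = 4.23e-06) and 1.33 ± 0.10 (SE, adjusted p = 7.74e-11). Ldhb, the subunit that favours pyruvate, was not called at any age. Its level per length in WT at 8 months was above that of Ldha, with a median of 236 TPM (the authors' values, scaled by transcript length and library size) against 67.9 TPM. In SgshKO the medians were 251 and 171 TPM.

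Slc16a3 encodes MCT4, the lactate exporter of glycolytic cells (chr11:120948484-120959000, + strand). It measured 50.6, 52.4 and 73.8 CPM in WT and 92.9, 83.7, 94.6 and 108 CPM in SgshKO at 3 weeks, and 51.2 and 48.7 against 109 and 126 CPM at 4 months. At 8 months it measured 44.4, 52.9, 61.6 and 52.2 CPM in WT and 125 to 174 with a median of 157 CPM in SgshKO. Each SgshKO library was above each WT library of its age, and the log2 fold change was 0.68 ± 0.13 (SE, adjusted p = 0.000769), 1.24 ± 0.17 (SE, adjusted p = 1.2e-05) and 1.54 ± 0.11 (SE, adjusted p = 5.07e-11). Slc16a1, the gene of the two-way transporter MCT1, measured 18.8 and 18.8 against 28.8 and 33.7 CPM at 4 months, and the log2 fold change was 0.74 (adjusted p = 0.0159). At 8 months its groups overlapped and the change was 0.38 (adjusted p = 0.0227). The 4-month call ended without WT replicate 1, WT replicate 2 or SgshKO replicate 2 (adjusted p = 0.08, 0.0941 and 0.177), and the 8-month call without WT replicate 2 or 3 (0.0923 and 0.112). Pdk1, whose product holds pyruvate back from the mitochondria and which is a known HIF-1 target, was not called at any age. Its log2 fold change at 8 months was -0.04 (adjusted p = 0.744).

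By authors' TPM, which allows a comparison between genes, the order of levels in WT at 8 months began with Ldhb, Slc2a5 and Aldoa, with medians of 236, 226 and 219 TPM. The ranges of these 3 over the 4 libraries overlapped. Pkm followed at 103 TPM, and Hif1a stood at 47.8 TPM. In SgshKO at 8 months Aldoa led at 719 TPM, followed by Pkm at 317, Ldhb at 251, Ldha at 171 and Tpi1 at 153 TPM. Slc2a5 had fallen to 100.1 TPM there. Egln3 stood at 0.749 TPM in WT and 12.3 TPM in SgshKO, so its large fold change was between low levels. The places of Gapdh, Pgk1, Pgam1, Eno1 and Bnip3 in these orders are uncertain, because their values in the age series are, as described below.

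The difference between genotypes, taken with its sign, was tested for a change with age. From 3 weeks to 8 months it rose for 14 of the 33 genes and fell for none. Of all genes 9.25% were called, 5.98% upward and 3.26% downward. Hk1 and Pfkfb4, which are among the 14, had negative log2 fold changes at 3 weeks and positive ones at 4 and 8 months. The largest such changes, on the log2 scale, were 3.26 ± 0.52 (SE, adjusted p = 0.000181) for Egln3, 3.21 ± 0.49 (SE, adjusted p = 9.95e-05) for Slc2a6, 1.40 ± 0.34 (SE, adjusted p = 0.00989) for Pgk1 and 1.25 ± 0.16 (SE, adjusted p = 6.78e-06) for Tpi1. With limma-voom the value for Egln3 was 3.04 (adjusted p = 0.0803). Those of Aldoa and Pkm were 1.01 ± 0.13 (SE, adjusted p = 1.35e-05) and 0.99 ± 0.12 (SE, adjusted p = 6.07e-06), and that of Hif1a was 0.42 (adjusted p = 0.0368). The Hif1a change held in 8 of the 22 fits that each left out 1 library, with an adjusted p of up to 0.108 (without WT replicate 3 of 3 weeks). For Vegfa and Bnip3, which were already higher at 3 weeks, the values were 0.17 (adjusted p = 0.885) and 0.42 (adjusted p = 0.221), neither called. From 3 weeks to 4 months 2.52% of all genes were called, 1.63% upward and 0.895% downward. The difference rose for 6 members (Hk1, Gpi1, Aldoa, Tpi1, Pkm and Egln3) and fell for none. That count was 3 without WT replicate 2 or SgshKO replicate 4 of 3 weeks, 2 without WT replicate 3 of 3 weeks or WT replicate 2 of 4 months, and 1 without WT replicate 1 or SgshKO replicate 2 of 4 months. From 4 months to 8 months no member was called with edgeR, beside 0.391% of all genes. At an unadjusted p under 0.05 there were 8 members (24.2%), beside 11.5% of all genes, and DESeq2 called 2.

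Within SgshKO, 19 of the 33 genes were higher and 2 lower at 8 months than at 3 weeks, beside 30.6% of all genes called, 15.5% higher and 15.1% lower. The 2 lower ones were Slc2a5, at -0.68 (adjusted p = 0.00314), and Hk3, at -0.35 (adjusted p = 0.00838). Within WT, 3 were higher and 6 lower over the same span, beside 7.65% of all genes called, 3.02% higher and 4.63% lower. Slc2a3 rose in WT, from 6.45, 7.64 and 7.71 CPM to 31.1, 41.7, 43.9 and 59.4 CPM, without overlap, by 2.59 ± 0.31 (SE, adjusted p = 6.38e-06) on the log2 scale. On that scale Hif1a fell in WT, at -0.43 ± 0.10 (SE, adjusted p = 0.00686), as did Tpi1 and Eno1, at -0.47 (adjusted p = 0.0151) and -0.56 (adjusted p = 0.0202). Of the 9 WT calls, those of Slc2a3 and Hif1a held in all 22 fits that left out 1 library. The WT count was 4 without WT replicate 2 or 3 of 3 weeks. It was 1 in a model with the levels of the sex-linked transcripts Ddx3y and Xist as a covariate, which differed between the WT libraries of these ages. In that model the genotype difference rose from 3 weeks to 8 months for 13 members and fell for 0. SgshKO against WT gave 14 members at 3 weeks and 25 at 8 months in it.

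Some of these genes share much of their sequence with other annotated genes, so their counts can depend on how reads that match several places were treated. That treatment is not given in the sources used here, and its part in the levels below was not tested. Of the 50-base windows of the Gapdh transcript, 82.5% also occur in 222 other annotated genes, 213 of them pseudogenes. The median of Gapdh was 2.14 CPM in WT at 8 months and 588 CPM in the PBS group of the WT ASO set. The same 2 medians were 2.37 and 72.1 CPM for Pgk1 (68.0% of windows shared), 4.11 and 126 CPM for Pgam1 (41.5%) and 32.5 and 298 CPM for Eno1 (72.2%). Bnip3, with 62.4% of windows shared, had 11.8 and 38.2 CPM. The PBS median was thus 275 times the other for Gapdh, 30.4 times for Pgk1, 30.6 times for Pgam1, 9.17 times for Eno1 and 3.25 times for Bnip3. Over the 13 genes with no shared window and a level in both tables, that ratio ran from 0.297 (Slc2a3) to 2.57 (Slc2a5) with a median of 1.27. Pfkfb2, with 40.9% of windows shared, went the other way, at 47.5 and 7.48 CPM. The 2 tables were normalised separately and come from different mice, so levels across them are not tested here. The values of Gapdh, Pgk1, Pgam1, Eno1 and Bnip3 in the age series are therefore uncertain.

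**Figure D3:**
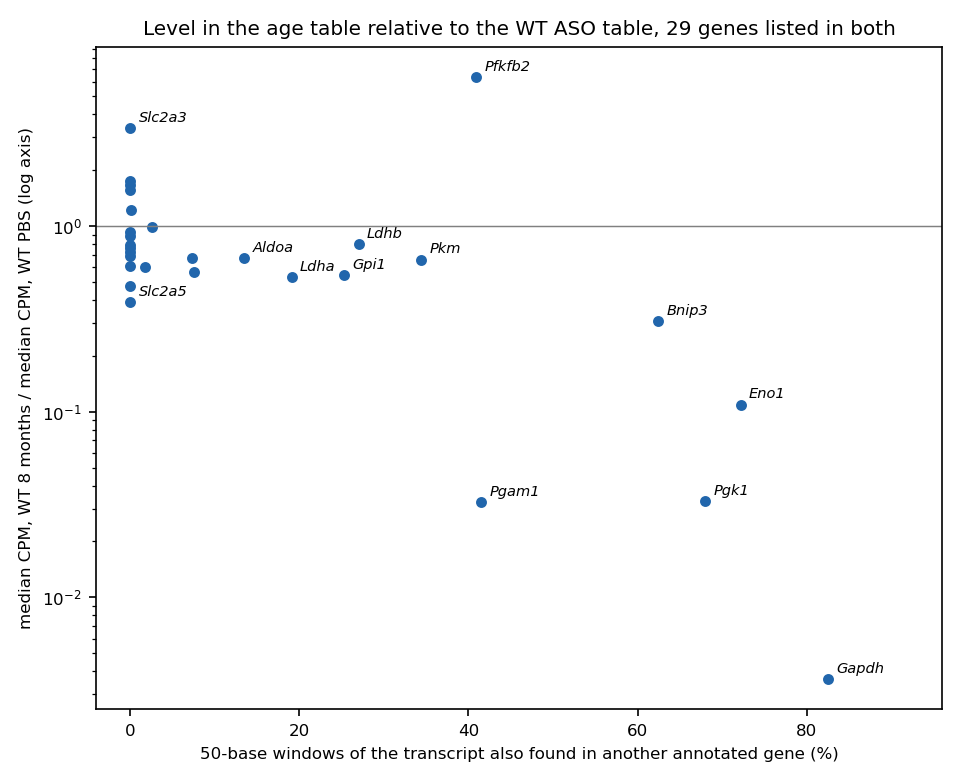
Ratio of the median CPM in WT at 8 months to that in the PBS group of the WT ASO set (vertical log axis) against the percent of 50-base transcript windows that occur in other genes (horizontal axis), 1 point for each of 29 genes. Gapdh, at 82.5% shared, lies lowest (2.14 against 588 CPM), followed by Pgk1 and Pgam1.

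In WT microglia much of the glycolytic path was higher with the Mitf ASO. With it 13 of 29 listed genes were higher and 1 was lower than with ntc, beside 11.0% of all 10277 genes called, 5.77% higher and 5.21% lower. All 5 listed genes of lower glycolysis were higher, as were 3 of 5 of upper glycolysis, while no hexokinase was called. Its libraries did not overlap with ntc for 9 of the 29, beside 7.67% of all genes. The median log2 fold change of the 29 was 0.24 and that of all genes -0.01. With the Tfeb ASO 2 genes were higher and none lower, beside 0.778% of all genes called, 0.564% higher and 0.214% lower. Its libraries did not overlap with ntc for 4 genes, beside 4.07% of all. With the Tfe3 ASO 5 genes were higher and none lower, beside 2.16% called, 1.46% higher and 0.701% lower, and 5 did not overlap, beside 4.68% of all. The 3 comparisons share the 4 ntc libraries, so their values are set side by side only. The ASOs came in 4 sets of libraries numbered grp 1 to 4, which form a block in the model and give the order of values below.

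Pkm measured 280.3, 258, 298 and 243 CPM with ntc and 439, 412, 439 and 382 CPM with the Mitf ASO. It measured 381, 341, 347 and 325 CPM with the Tfeb ASO and 380.1, 385, 432 and 367 CPM with the Tfe3 ASO. Every library of the 3 ASOs was above every ntc library, and the log2 fold change was 0.63 ± 0.05 (SE, adjusted p = 2.87e-07), 0.37 ± 0.05 (SE, adjusted p = 0.000699) and 0.54 ± 0.05 (SE, adjusted p = 1.72e-05) for Mitf, Tfeb and Tfe3. Gapdh measured 689, 587, 677 and 603 CPM with ntc and 879.9, 852, 905 and 809.9 CPM with the Mitf ASO. With the Tfeb and Tfe3 ASOs it measured 797, 764, 708 and 758 CPM and 789, 769.7, 846 and 779 CPM. No library of these 3 ASOs overlapped with ntc, and the log2 fold changes were 0.43 (adjusted p = 4.06e-05), 0.25 (adjusted p = 0.033) and 0.32 (adjusted p = 0.00342). The Tfeb count of 2 genes became 1, Pkm alone, without any 1 of 12 libraries that included 3 of the 4 ntc and 3 of the 4 Tfeb ASO libraries, and 4 without PBS grp 1 or grp 3.

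Aldoa measured 390.3, 318, 347 and 321 CPM with ntc, 482, 434, 471 and 411 CPM with the Mitf ASO and 415, 385, 430.0 and 402 CPM with the Tfe3 ASO. The Mitf libraries lay above all ntc libraries and the Tfe3 libraries overlapped with them, with log2 fold changes of 0.39 ± 0.05 (SE, adjusted p = 8.69e-05) and 0.25 ± 0.05 (SE, adjusted p = 0.0155). Tpi1 measured 70.96, 57.6, 79.3 and 61.1 CPM with ntc and 82.8, 81.8, 127 and 93.5 CPM with the Mitf ASO. These did not overlap, and the log2 fold change was 0.52 ± 0.10 (SE, adjusted p = 0.00265). Gpi1 measured 154, 159, 161 and 161 CPM with ntc and 203, 189, 205 and 189 CPM with the Mitf ASO, also without overlap, at 0.31 ± 0.05 (SE, adjusted p = 0.000639).

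Among the other genes of lower glycolysis, Eno1 measured 325, 309, 315 and 312 CPM with ntc and 396, 374, 435 and 405 CPM with the Mitf ASO. Pgk1 measured 84.5, 72.03, 74.4 and 71.6 CPM with ntc and 102, 90.02, 103 and 85.1 CPM with that ASO. Pgam1 measured 134, 128, 149.7 and 125 CPM and 169, 162, 181 and 156 CPM. For these 3 genes each library of the Mitf ASO was above each ntc library, and the log2 fold changes were 0.35 ± 0.06 (SE, adjusted p = 0.00045), 0.33 ± 0.06 (SE, adjusted p = 0.00132) and 0.32 ± 0.06 (SE, adjusted p = 0.00186).

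Slc2a6 was low in WT, with 1.53, 1.38, 2.27 and 1.84 CPM with ntc, and measured 4.38, 4.01, 5.11 and 2.47 CPM with the Mitf ASO. The groups were separate, and the log2 fold change of 1.17 ± 0.26 (SE, adjusted p = 0.00803) was the largest of the 29 genes in this comparison. Slc2a5 went down, from 1100.5, 1255, 955 and 1114 CPM with ntc to 835, 1033, 811 and 846 CPM with the Mitf ASO. The grp 2 library of the Mitf ASO was above the lowest ntc library, so the groups overlapped, and the log2 fold change was -0.33 ± 0.06 (SE, adjusted p = 0.00124). Hif1a measured 283, 212, 197 and 203 CPM with ntc and 426, 295, 210.2 and 265 CPM with the Mitf ASO. The groups overlapped widely and each grp was higher with the ASO, and the log2 fold change was 0.38 ± 0.10 (SE, adjusted p = 0.0222). That call was lost without ntc grp 1, 2 or 4 (adjusted p = 0.0767, 0.0742 and 0.0601) or Mitf ASO grp 1 or 2 (0.0718 and 0.052). Pfkfb3 measured 222, 194, 199 and 172 CPM with ntc and 275, 223, 209.7 and 199 CPM with the Mitf ASO, in overlapping groups. Its log2 fold change was 0.20 (adjusted p = 0.042), and it lost its call without ntc grp 1, 2 or 4 (adjusted p = 0.112, 0.0729 and 0.151) or Mitf ASO grp 1, 2 or 3 (0.103, 0.0954 and 0.067). Ldha measured 147, 147, 126 and 131 CPM with ntc and 187, 158, 175 and 140.0 CPM with the ASO, and Ldhb 279, 231, 247 and 209.7 CPM and 293, 325, 316 and 271 CPM. Both pairs of groups overlapped. The log2 fold changes were 0.26 (adjusted p = 0.0097) and 0.32 (adjusted p = 0.00328), and Ldha lost its call without Mitf ASO grp 3 (adjusted p = 0.0508). Of the hypoxia targets listed, Bnip3, Egln1 and Egln3 were not called.

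With the Tfe3 ASO, Pgk1 and Ldhb were also higher. Pgk1 measured 90.98, 86.6, 92.1 and 90.4 CPM and Ldhb 286, 302, 309 and 273 CPM. Log2 fold changes against ntc were 0.25 (adjusted p = 0.0259) and 0.28 (adjusted p = 0.0266). The Tfe3 count of 5 genes was 2 without ntc grp 2, ntc grp 4, Tfe3 ASO grp 3 or Tfe3 ASO grp 4, and 3 without ntc grp 3 or Tfe3 ASO grp 2. The model without the block called 8 genes for Mitf, 0 for Tfeb and 2 for Tfe3. Of the 13 genes higher with the Mitf ASO, 11 (84.6%) were also higher in SgshKO at 8 months, which comes from other libraries. Over all genes of both tables that share was the same size, at 84.9% or 490 of 577 genes. The 11 genes made up 55.0% of the 20 listed members higher in SgshKO at 8 months. Over all genes of both tables this second share was 22.9%, or 490 of 2141 genes. The other 2 members higher with the Mitf ASO were Gapdh and Ldhb. Slc2a5 was lower in both. Between ntc and PBS no gene was called with edgeR (0.00% of all genes) or limma-voom, and DESeq2 called 2, neither of them a member. At an unadjusted p under 0.05 edgeR gave 415 of 10277 genes and 1 of the 29, Pkm, which measured 279, 238, 246 and 234 CPM with PBS.

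**Figure D4:**
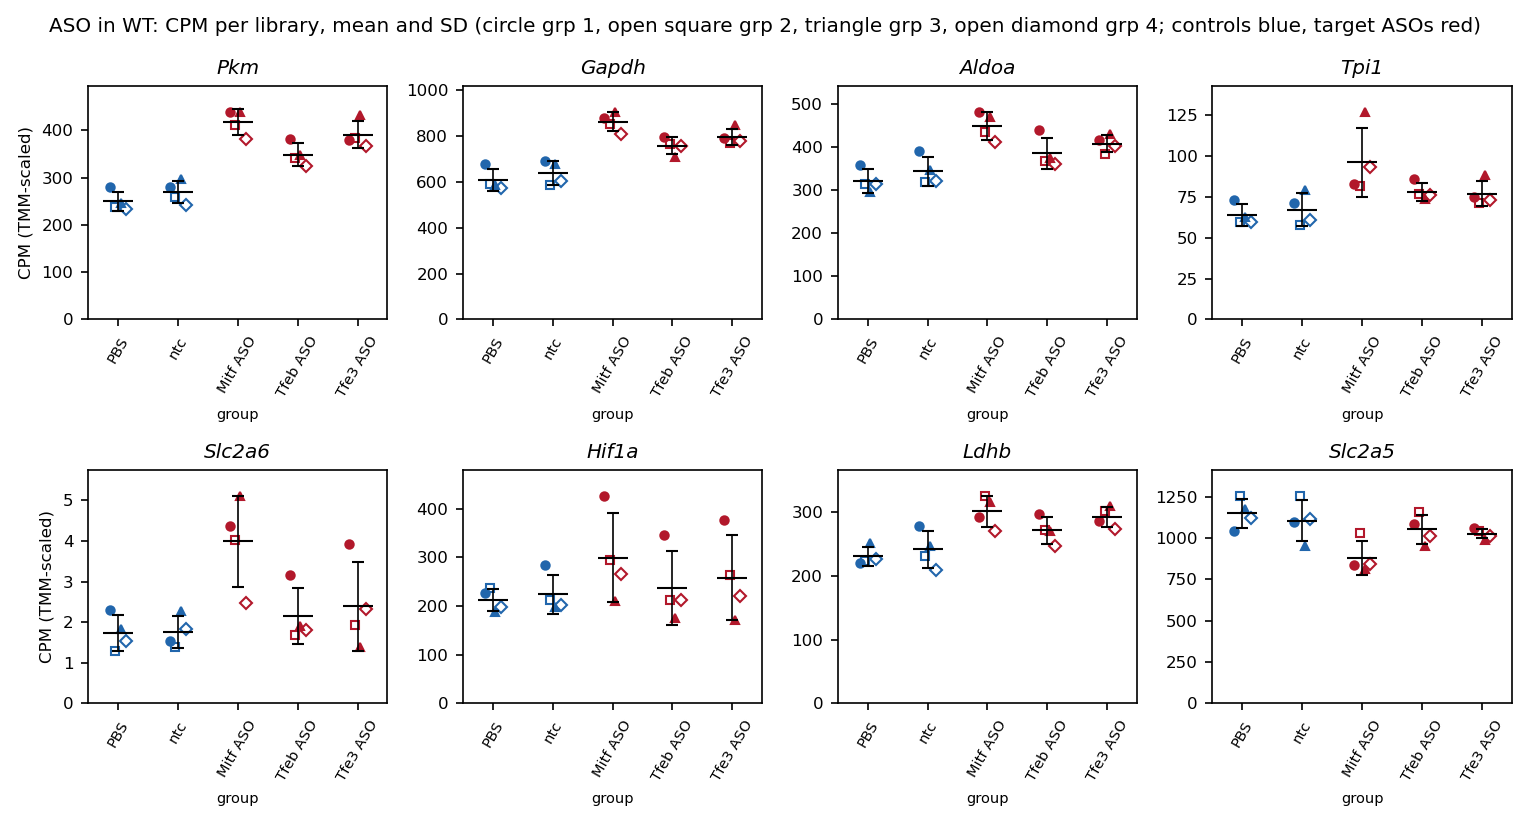
CPM of 8 genes in each WT ASO library (vertical axes) by treatment (horizontal axes), symbols by grp, controls in blue and target ASOs in red, with the mean and SD in black. For Pkm and Gapdh every library of the Mitf, Tfeb and Tfe3 ASOs lies above every ntc library, and Slc2a5 is lower with the Mitf ASO.

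In SgshKO microglia 5 of the 33 genes fell and none rose with the combined Mitf and Tfe3 ASOs, beside 9.33% of all 10589 genes called, 4.84% higher and 4.50% lower. The 5 were Hif1a, the glucose transporter gene Slc2a1, Pfkfb3, and the lactate transporter genes Slc16a3 and Slc16a1. No gene that encodes an enzyme between hexokinase and lactate dehydrogenase was called. At an unadjusted p under 0.05 there were 13 of the 33 (39.4%), beside 25.3% of all genes. The median log2 fold change of the 33 was -0.02.

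Hif1a ran from 788 to 929 with a median of 851 CPM over the 8 ntc libraries and from 429.7 to 665 with a median of 606 CPM over the 8 libraries with the combined ASOs. Hif1a was 1 of 3 members whose groups did not overlap, beside 1.06% of all genes, and the log2 fold change was -0.55 ± 0.08 (SE, adjusted p = 0.0004), or 0.683 times the ntc level. Slc2a1 ran from 118 to 140.4 with a median of 128 CPM with ntc and from 97.5 to 115 with a median of 104 CPM with the ASOs. Pfkfb3 ran from 285 to 331 with a median of 298 CPM with ntc and from 229.7 to 278 with a median of 247 CPM with the ASOs. Neither pair of groups overlapped, and the log2 fold changes were -0.31 ± 0.05 (SE, adjusted p = 0.000453) for Slc2a1 and -0.29 ± 0.04 (SE, adjusted p = 0.000609) for Pfkfb3.

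Slc16a3 ran from 86.5 to 118 with a median of 105 CPM with ntc and from 66.4 to 94.5 with a median of 76.5 CPM with the combined ASOs. Slc16a1 ran from 45.03 to 57.5 with a median of 54.7 CPM and from 38.3 to 50.6 with a median of 44.2 CPM. Both pairs of groups overlapped, and the log2 fold changes were -0.38 ± 0.08 (SE, adjusted p = 0.00491) and -0.27 ± 0.06 (SE, adjusted p = 0.0114). The 8 libraries of each treatment fell into grp 1 and grp 2, and within grp 1 alone 2 of the 5 genes were called. There Slc2a1 had an adjusted p of 0.0868, Pfkfb3 of 0.0793 and Slc16a3 of 0.232, while in grp 2 alone Slc16a1 had an adjusted p of 0.262. The summed level of the 6 listed neutrophil markers ran from 1.03 to 564 CPM with ntc and from 0.996 to 358 CPM with the combined ASOs, and none of them was called. Both listed border macrophage markers were called higher with the combined ASOs, with sums of 121 to 191 CPM with ntc and 169 to 206 CPM with the ASOs. Of the microglial markers 3 of 10 were called higher, and 1 of 4 monocyte markers lower. The part of these transcripts in the values was not tested.

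Of the 23 genes higher in SgshKO at 8 months, 5 were lower with the combined ASOs and 18 were not called. Of all genes 4.50% were lower with these ASOs. The share among all genes higher in SgshKO at 8 months was not counted. Among the 18 members not called, Pkm, Tpi1 and Aldoa had log2 fold changes of 0.10 (adjusted p = 0.25), -0.06 (adjusted p = 0.648) and 0.00 (adjusted p = 0.986). The hypoxia targets Bnip3 and Egln3 were at -0.21 (adjusted p = 0.0599) and -0.31 (adjusted p = 0.0968), and Vegfa was at -0.25 (adjusted p = 0.375). Hif1a and Pfkfb3 were thus higher with the Mitf ASO in WT and lower with the Mitf and Tfe3 ASOs in SgshKO. The comparisons come from separate tables, and a test of the difference between them was not made. The Y-linked gene Ddx3y was detected in every library of both ASO sets, at 49.3 to 102 CPM. With the age of these mice not given, genotype and age cannot be told apart across the sets.

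**Figure D5:**
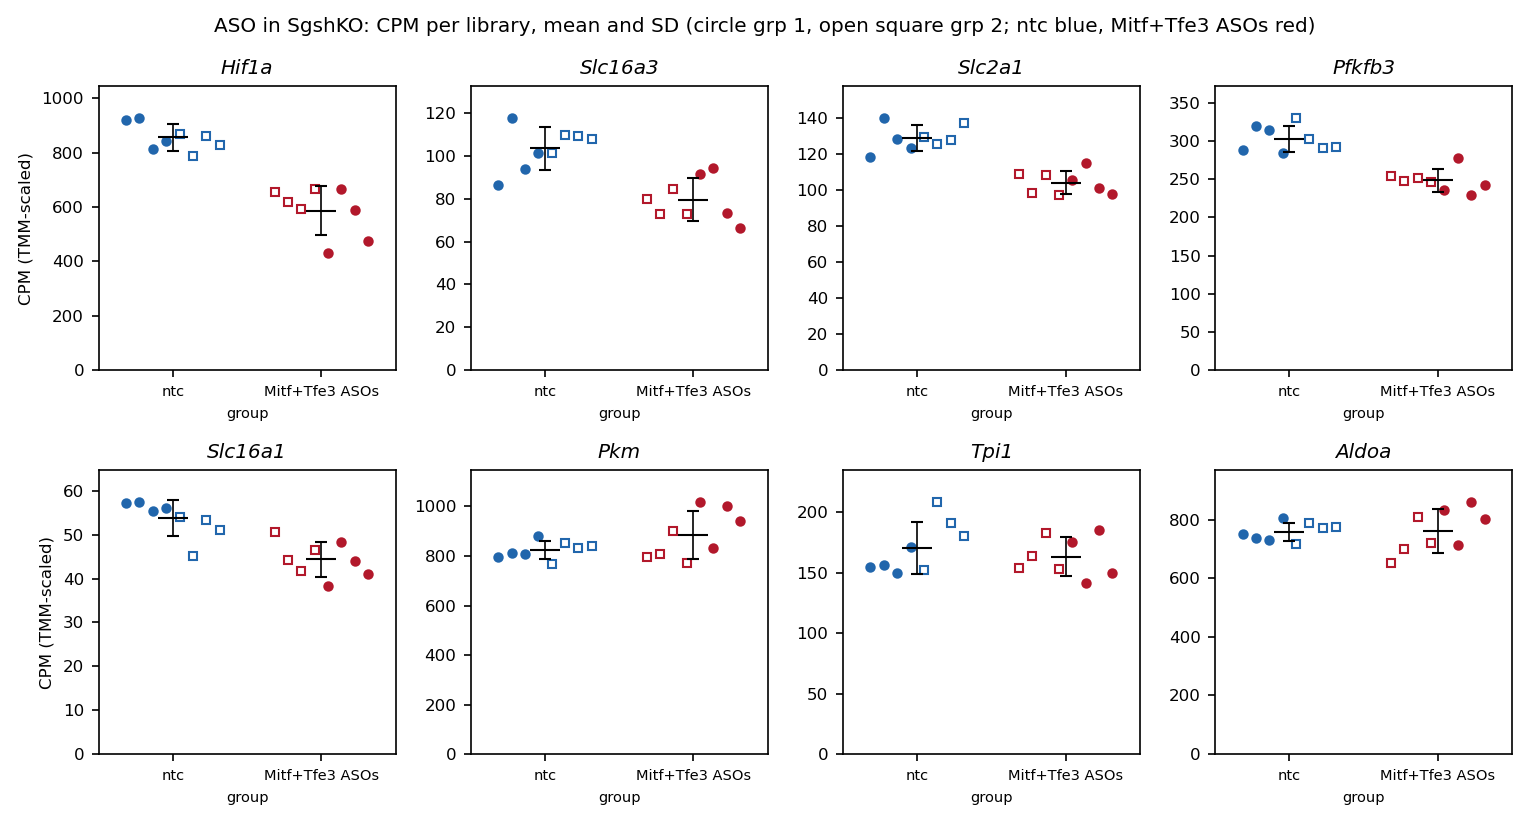
CPM of 8 genes in each SgshKO ASO library (vertical axes) with ntc (blue) or the combined Mitf and Tfe3 ASOs (red), symbols by grp, with the mean and SD in black. Hif1a, Slc2a1 and Pfkfb3 do not overlap between treatments, while Pkm, Tpi1 and Aldoa overlap between them.

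Other genes of the same pathways were followed as lists. Of 45 tested genes of glycolysis, the pentose phosphate path and pyruvate handling outside the 33, 4 were higher and 1 lower in SgshKO at 3 weeks, 16 and 2 at 4 months, and 15 and 4 at 8 months. These were 11.1%, 40.0% and 42.2% of the list, so that the shares at 3 weeks and 8 months were near the 9.03% and 40.5% of all genes called, and that at 4 months lay above the 19.5%. Pygl, the gene of a glycogen phosphorylase, measured 80.3 ± 19.8 against 14.7 ± 1.20 CPM (mean ± SD) in SgshKO and WT at 8 months, and the log2 fold change was 2.46 ± 0.17 (SE, adjusted p = 1.9e-11). Gpd2, which encodes the mitochondrial glycerol 3-phosphate dehydrogenase, measured 22.7 ± 3.77 against 5.91 ± 2.10 CPM, a change of 1.92 ± 0.19 (SE, adjusted p = 8.35e-09). Its cytosolic partner gene Gpd1 fell, with 16.8 ± 4.69 against 56.2 ± 12.2 CPM and a change of -1.74 ± 0.17 (SE, adjusted p = 6.92e-09).

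At 4 months the largest changes of that list were Pygl at 2.88 (adjusted p = 2.1e-08), Adpgk at 2.40 (adjusted p = 0.000243), Gpd2 at 1.76 (adjusted p = 6.53e-05) and Gys1 at 1.50 (adjusted p = 5.19e-05). At 3 weeks they were Gpd2 at 0.77 (adjusted p = 0.0215), Galm at 0.61 (adjusted p = 0.00647), Pgm2 at 0.54 (adjusted p = 0.0144) and Txnip at -0.38 (adjusted p = 0.0313). Txnip encodes an inhibitor of glucose uptake, and the other 3 encode enzymes of sugar and glycerol phosphate metabolism. With the Mitf ASO in WT, 2 of 39 were higher and 1 lower (7.69% of the list, below the 11.0% of all genes), and Txnip was the lower one, at -0.42 (adjusted p = 0.000239). The combined ASOs in SgshKO raised 2 of 40, Gpd1 at 0.45 (adjusted p = 0.00568) and G6pdx at 0.17 (adjusted p = 0.0254), and lowered 2, Slc2a8 at -0.24 (adjusted p = 0.0141) and Pdp2 at -0.24 (adjusted p = 0.0208). These 4 genes were 10% of the list, near the 9.33% of all genes.

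Of 44 tested hypoxia response genes outside the 33, 9 were higher and 0 lower at 3 weeks, 14 and 3 at 4 months, and 21 and 7 at 8 months. These were 20.5%, 38.6% and 63.6% of the list, beside 9.03%, 19.5% and 40.5% of all genes. Lox, the gene of the collagen cross-linking enzyme lysyl oxidase, measured 15.6 ± 3.69 against 1.02 ± 0.240 CPM (mean ± SD) in SgshKO and WT at 3 weeks, 148 ± 15.3 against 0.738 ± 0.376 CPM at 4 months and 148 ± 32.4 against 0.303 ± 0.222 CPM at 8 months. The log2 fold changes were 3.95 ± 0.31 (SE, adjusted p = 2.79e-09), 7.53 ± 0.41 (SE, adjusted p = 5.31e-12) and 8.74 ± 0.30 (SE, adjusted p = 7.85e-17). Cxcr4, which encodes a chemokine receptor, measured 34.9 ± 16.2 against 1.30 ± 0.738 CPM at 8 months, with a change of 4.76 ± 0.40 (SE, adjusted p = 6.1e-10). Bhlhe40, the gene of a transcriptional repressor, measured 25.8 ± 6.84 against 0.346 ± 0.208 CPM, with a change of 6.22 ± 0.33 (SE, adjusted p = 1.83e-13). Ndrg1 was near 0 in WT, with 1.42 ± 1.24 against 0.0118 ± 0.0236 CPM at 8 months. Mif, which encodes a cytokine, was higher at 3 weeks by 1.19 (adjusted p = 0.00152).

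In the ASO sets, Lox was higher with the Mitf ASO in WT, at 18.3 ± 3.54 against 3.58 ± 1.86 CPM (mean ± SD) for the ASO and ntc, and the log2 fold change was 2.42 ± 0.31 (SE, adjusted p = 6.38e-05). With the Tfe3 ASO it measured 8.84 ± 2.84 against 3.58 ± 1.86 CPM, a change of 1.34 ± 0.31 (SE, adjusted p = 0.0281). The Mitf ASO called 5 of 29 of these hypoxia genes higher and 4 lower, the Tfeb ASO none, and the Tfe3 ASO 1 higher and 1 lower, which for Mitf and Tfe3 were 31.0% and 6.90% of the list beside 11.0% and 2.16% of all genes. In SgshKO the combined ASOs called 3 of 35 lower and none higher, with Cxcr4 and Wsb1 among them, or 8.57% of the list and near the 9.33% of all genes. Cxcr4 measured 8.40 ± 1.34 against 15.1 ± 4.88 CPM with the ASOs and ntc, a change of -0.83 ± 0.17 (SE, adjusted p = 0.00519).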

How the data were processed

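RNA of sorted microglia (DAPI-, CD11b+, CD45low, CX3CR1+) was sequenced from polyA-selected, single-end, strand-marked libraries, per the labels' protocols. Groups come from the sample titles and characteristics. The authors deposited raw counts per gene for the age series, the WT ASO and the SgshKO ASO libraries, TPM for the age series, and normalised signal described by its file name as batch corrected for both ASO sets. The submitters' processing notes name STAR 2.5.3a, kallisto 0.44.0, HOMER 4.11, DESeq2 1.36.0, R 4.2.3 and the build mm10. Which tool made which table, and how reads with several matches were counted, is not given in the sources used here.

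The deposited counts of each set were analysed in 1 model with edgeR 4.0.16 in R 4.3.3. The quasi-likelihood F test was applied after TMM scaling and filterByExpr (minimum count 10), with Benjamini-Hochberg adjustment over all genes tested and a threshold of 0.05. All listed members passed the filter. A gene's CPM is its count scaled to a common library size with the TMM factors, and the SE is the log2 fold change divided by the square root of F. The age model had 6 genotype and age groups and no block, and the ASO models had the grp number as a block. In the WT ASO set, 38 of 40 pairs of libraries with the same grp deviated together (correlation over 0.1), and in the age series 1 of 9 pairs with the same replicate number did. In the SgshKO ASO set 3 of 4 pairs with the same replicate number did in grp 1, and 2 of 4 in grp 2. The model of that set had no replicate block, which was taken as an alternative. No 2 libraries were identical.

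The members and the gene lists were chosen with earlier results of these data known. Values per library are given for members called with an absolute log2 fold change of at least 0.5 in SgshKO against WT, for members called in an ASO comparison and for Hif1a. Of the other lists, up to 4 called genes per comparison are named, and some are not reported here. Alternatives were RLE size factors, DESeq2 1.42.0, limma-voom (limma 3.58.1), other count filters, the replicate block taken in or out, TPM with pseudocounts of 1 and 0.1, the batch-corrected signal, each grp alone and each library left out. A sex-linked covariate, another grp for PBS replicate 4 (whose title and column name differ) and leaving out libraries with neutrophil transcripts were added after seeing the data. The edgeR step was tested on simulated data, and the limma and DESeq2 steps were not.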

Additional observations from a re-analysis of the deposited data

Results flagged for a closer look

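In groups of 4 to 10 libraries, 22 of 310 pairs of a gene and a group (7.1%) had 1 library far from the rest, and chance gives about 1 in 20. WT replicate 4 at 8 months accounted for 4 of them. It was highest for Ldha at 104.0 CPM (70.4 in the nearest library, given in brackets from here on), for Pfkfb3 at 299 (186) and for Slc2a1 at 119.7 (55.6), and lowest for Ldhb at 147 (179). At the same age Pfkl was lowest in WT replicate 1 at 72.7 CPM (90.0), and Pkm was lowest in SgshKO replicate 2 at 424 CPM (527).

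In the WT ASO set, grp 1 of the Tfeb ASO was highest for Aldoa at 439 CPM (374), Bnip3 at 46.5 (32.4) and Slc2a6 at 3.17 (1.91). The library of grp 1 was also highest with ntc for Bnip3 at 43.1 CPM (37.5) and with the Mitf ASO for Pdk1 at 147 (103). It was lowest with the Tfe3 ASO for Hk1 at 31.2 CPM (36.1) and with PBS for Slc2a1 at 73.6 (91.6). PBS replicate 4 was highest for Hk2 at 383 CPM (342) and lowest for Hk3 at 83.1 (103). With the Tfeb ASO, Egln3 was lowest in grp 2 at 1.58 CPM (1.94) and Slc2a3 highest in grp 3 at 36.1 (11.9). With the Mitf ASO, Slc2a5 was highest in grp 2 at 1033 CPM (846).

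In the SgshKO ASO set all 4 such libraries were of grp 1. Replicate 1 with ntc was lowest for Hk2 at 253 CPM (330). Replicate 1 with the combined ASOs was highest for Pfkl at 142 CPM (114). Replicate 2 of both treatments was highest for Slc2a5, at 541 CPM with the ASOs (475) and 495 CPM with ntc (430.4).

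The difference between SgshKO and WT changed with age for 20 pairs of a gene and an interval, each tested as an interaction with edgeR. From 3 weeks to 4 months it rose on the log2 scale by 0.82 for Hk1 (adjusted p = 0.0371) and 0.94 for Gpi1 (0.0062). It rose by 0.64 for Aldoa (adjusted p = 0.0387), 0.78 for Tpi1 (0.0334), 0.76 for Pkm (0.00967) and 3.02 for Egln3 (0.0122). Without SgshKO replicate 2 of 4 months these lost their call for Gpi1, Aldoa, Tpi1 and Pkm (adjusted p = 0.179, 0.229, 0.246 and 0.141). From 3 weeks to 8 months it rose by 3.21 for Slc2a6 (adjusted p = 9.95e-05), 0.58 for Hk1 (0.0275) and 0.72 for Gpi1 (0.00184). It rose by 1.01 for Aldoa (adjusted p = 1.35e-05), 1.25 for Tpi1 (6.78e-06), 0.63 for Pfkfb4 (0.00394) and 1.40 for Pgk1 (0.00989). Over the same interval it rose by 1.20 for Eno1 (adjusted p = 0.000188), 0.99 for Pkm (6.07e-06) and 0.69 for Ldha (0.00322). It also rose by 0.86 for Slc16a3 (adjusted p = 0.00126), 0.42 for Hif1a (0.0368), 0.40 for Egln1 (0.0275) and 3.26 for Egln3 (0.000181). For Hk1 and Pfkfb4 the rise was from a negative log2 fold change at 3 weeks to a positive one. Hk1 kept its call in 16 and Egln1 in 17 of the 22 fits that each left out 1 library.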

How the results depend on the processing

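No member reversed its direction under any alternative among those called. Counts of called members moved by over 1.5 times in these cases. The change of the SgshKO difference from 4 to 8 months went from 0 to 2 with DESeq2 and to 1 without the low-count filter, and that from 3 weeks to 4 months from 6 to 2 with limma-voom and to 1 without the high-neutrophil libraries. The WT age comparison went from 9 to 1 with the sex-linked covariate. The Tfeb ASO went from 2 to 4 with DESeq2. Without the replicate block the Mitf, Tfeb and Tfe3 ASOs gave 8, 0 and 2. The combined ASOs gave 10 with the batch-corrected signal (1 higher and 9 lower) and 2 in grp 1 alone. The cause of these moves was not tested. With a replicate block, SgshKO against WT gave 11 (11 higher and 0 lower), 21 and 23 members at the 3 ages, without the 3-week calls of Slc2a5 (adjusted p = 0.0585), Gpi1, Hk1, Hk2 and Pfkfb4 and the 8-month calls of Slc2a3 (-0.39, adjusted p = 0.178), Hk3 and Slc16a1, the changes with age 5 and 11, WT age 7, SgshKO age 20, and the combined ASOs, blocked on replicate within grp, 6. Leaving out 1 library gave 10 to 16 members at 3 weeks, 14 to 21 at 4 months and 24 to 27 at 8 months. It gave 1 to 7 and 11 to 14 for the changes to 4 and 8 months, 0 to 1 from 4 to 8 months, 4 to 10 for WT age and 19 to 22 for SgshKO age. For the ASOs it gave 12 to 15 (Mitf), 1 to 4 (Tfeb), 2 to 5 (Tfe3), 0 to 0 (ntc against PBS) and 5 to 7 (combined). On log2(TPM + 1) the median change of all genes was -0.06, -0.12 and -0.14 at the 3 ages. The 8-month calls over all genes were then 2053 higher and 4066 lower, against 3090 and 2703 from counts, and 15, 21 and 24 members were called. Depth limits Aldoc, Egln3, Slc2a6, Pgk1 and Pgam1, which had few counts in WT.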

Other observations

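Slc2a3, the gene of a high-affinity glucose transporter, followed the grp of the WT ASO libraries more than their treatment. In grp 3 it measured 23.0 to 36.1 CPM over the 5 treatments, and in the other grps 7.67 to 14.3 CPM. It was not called in any of the 4 WT ASO comparisons.

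The summed level of the genes of the response to tissue dissociation differed between the sets, with group medians of 6310 to 23137 CPM in the age series and of 525 to 740 CPM in the ASO sets. Its part in the results was not tested.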
